A study of Arabidopsis thaliana with 12 samples.

Results

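The comparison described here set endodermal cells of the Arabidopsis thaliana mutant myb36-1 against endodermal cells of wild type, both in the Col-0 background, and asked which transcripts differed between the genotypes across all loci. Its members are the 6 libraries of sorted endodermis, 3 of the mutant and 3 of wild type, out of 12 libraries in the study, which also holds whole roots of both genotypes. Each group was labelled as biological replicates. Seedlings grew for 6 days on MS agar with sucrose under long days. Roots were digested to protoplasts, and the endodermal population was collected by fluorescence-activated sorting and then frozen. The labels give neither the reporter used for sorting nor the lesion of the myb36-1 allele, and they name no agent that differed between the groups. The description leaves aside the genes of the Casparian strip, suberin and phenylpropanoid synthesis and covers the other gene families and processes among 33602 counted loci.

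The endodermis encloses the vascular cylinder of the root. It seals its walls with a lignified band, the Casparian strip, and so sets what passes between soil and stele. MYB36 is an R2R3 MYB transcription factor that is known to switch on the genes for this band as endodermal cells stop dividing and differentiate. The layer also carries transporters, secreted wall enzymes, defence metabolites and receptors for peptides and microbial molecules, and these are the gene groups followed below.

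The mutant libraries held 7280556 to 13427477 counts and the wild-type libraries 17721913 to 24274637. Replicates correlated by rank at 0.906 to 0.929 in mutant cells and at 0.978 to 0.987 in wild-type cells. Levels are TMM-scaled CPM, counts relative to library size, with replicates 1, 2 and 3 in that order, and means carry their SD over 3 libraries. MYB36 (AT5G57620, chromosome 5, 23334767 to 23336632, 3 exons on TAIR10.1) had 92.1, 180.0 and 95 CPM in the mutant libraries, against 124, 169 and 245 CPM in the wild-type libraries. The groups overlapped, and the difference did not pass the test (log2 change -0.55, SE 0.35, edgeR adjusted p = 0.273). In whole roots MYB36 averaged 19.5 ± 1.48 CPM in mutant roots and 34.9 ± 2.42 CPM in wild-type roots (log2 -0.84, edgeR adjusted p = 0.00252). Since the place of the lesion is not given, this transcript does not check the genotype labels.

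Marker genes of the root cell types differed between the sorted groups. Among the 5 endodermal markers, SCR, which specifies the ground tissue, and SCL3 were higher in the mutant (log2 1.53, edgeR adjusted p = 0.00351 and log2 3.58, edgeR adjusted p = 0.000212), whereas CASP1, which helps to build the strip, was lower (log2 -3.52, edgeR adjusted p = 0.000892). Markers of the root cap summed to 2.96 to 17.1 CPM in the mutant libraries and 164 to 219.6 CPM in the wild-type libraries, with 5 of 6 lower and a median log2 fold change of -5.70. Markers of root hairs and epidermis summed to 47.6 to 57.9 CPM in the mutant and 259 to 329 CPM in wild type, with 7 of 9 lower and a median of -2.71. The endodermal list summed to 948 to 1341 CPM in the mutant and 1431 to 2199 CPM in wild type. Cortex markers summed to 6.15 to 17.3 CPM in the mutant and 0.298 to 1.04 CPM in wild type. There 1 of 2 members could be tested, AED3 (AT1G09750), and it was higher (log2 4.78, edgeR adjusted p = 0.00401). The call for the cortex list rests on this 1 gene. Xylem, phloem and stele lists had 0 called members of 5, 2 and 2 tested. Xylem summed to 6.74 to 19.3 CPM in the mutant and 10.4 to 22.7 CPM in wild type, phloem to 6.03 to 15.4 CPM in the mutant and 4.12 to 7 CPM in wild type, and stele to 41.3 to 47 CPM in the mutant and 37.2 to 42.6 CPM in wild type. The part of the root cap, root hair and cortex transcripts in the results that follow was not tested. Fewer cells of a type and less RNA per cell cannot be told apart in these pooled cells.

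**Figure D1:**
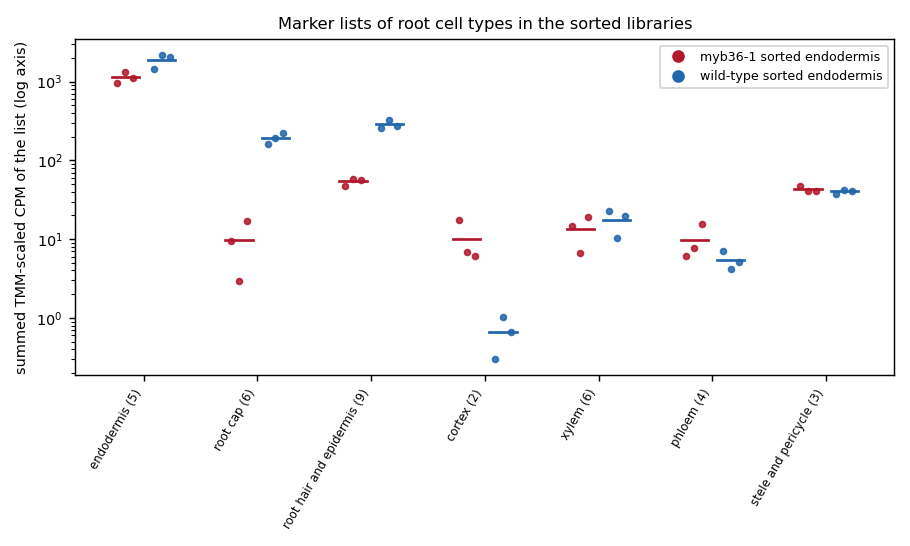
Summed TMM-scaled CPM of each marker list (log axis) in the 3 myb36-1 libraries (red, left) and the 3 wild-type libraries (blue, right), with the mean as a line and the number of list members in brackets. The root cap and root hair lists lie below wild type in all 3 mutant libraries, and the cortex list lies above it.

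Across all genes, 28.5% of 18318 tested loci were called, meaning an edgeR adjusted p under 0.05. Called higher in the mutant were 2857 genes (15.6%), and called lower were 2368 (12.9%), at a median log2 change of -0.05 over all genes tested. Differences past 4-fold were common among the called genes, with 861 higher and 936 lower. The count of calls depended on the wild-type libraries: leaving out replicate 1, 2 or 3 of wild type left 1340, 1234 or 1546 genes higher and 1172, 1002 or 1218 lower. Leaving out mutant replicate 1 raised the lower calls to 3566. The shares of 15.6% higher and 12.9% lower are the background for the counts of each gene group below. Mutant and wild-type libraries did not overlap for 49.1% of all genes tested, which is the background for each gene without overlap.

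**Figure D2:**
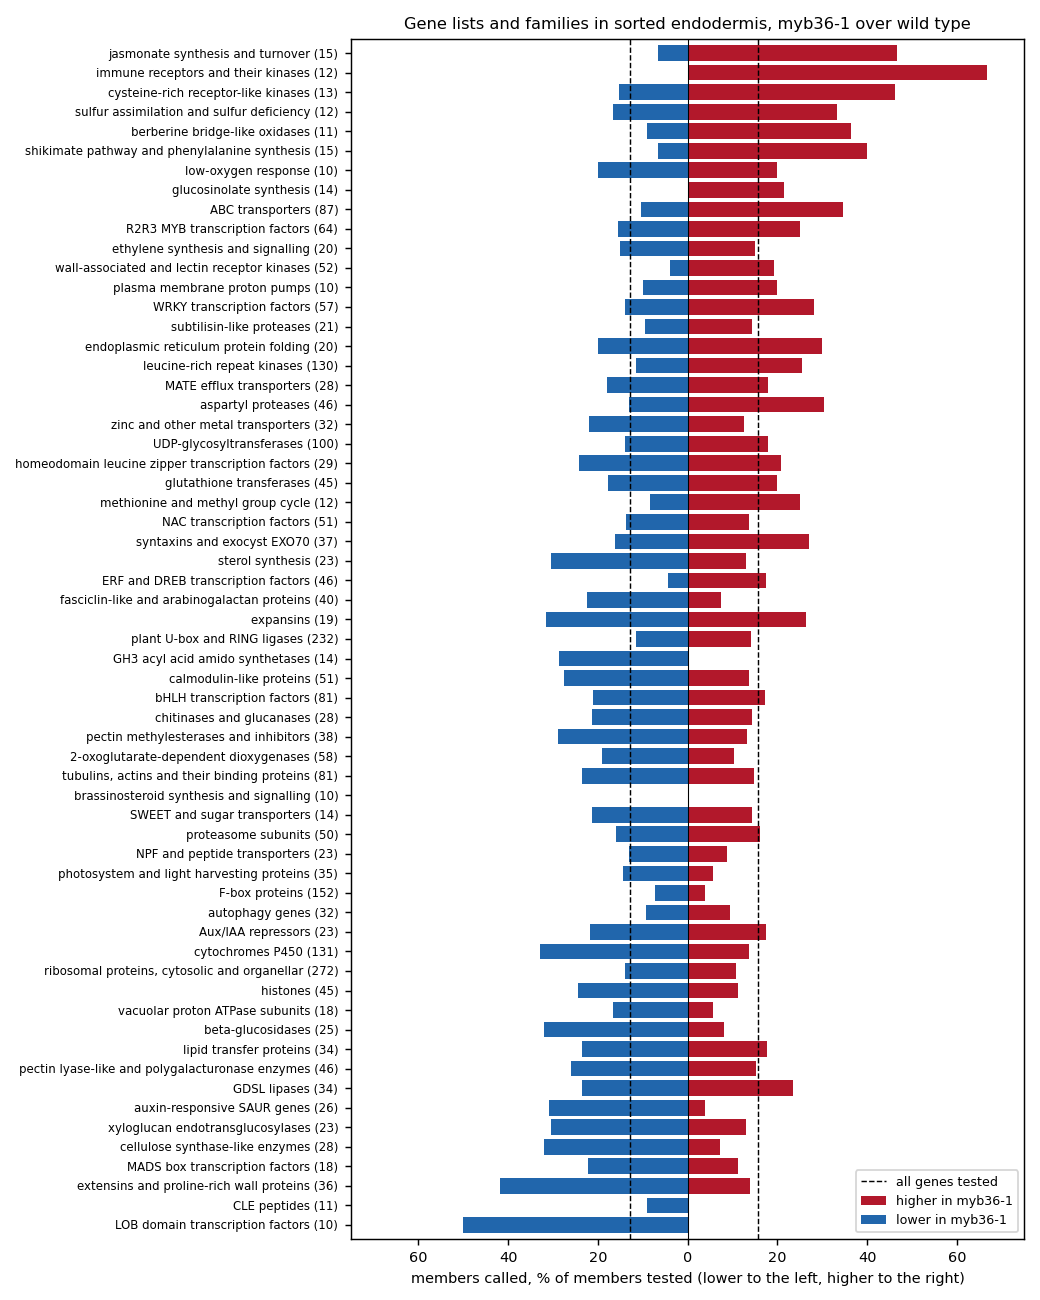
Share of the tested members of each list or family with at least 10 tested members (number tested in brackets) called higher in myb36-1 (red bars, to the right) or lower (blue bars, to the left), ordered by median log2 fold change. Cell type marker lists and groups with fewer tested members are not drawn. Dashed lines mark the shares over all genes tested, 15.6% higher and 12.9% lower, and the immune receptor list and LOB domain factors reach farthest on either side.

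The leading genes by fold change were taken from called genes with at least 5 CPM in either group, at least 10 counts in the lower group and no overlap of libraries, outside the Casparian strip, suberin and phenylpropanoid genes. Under these limits the 8 genes with the largest fold changes upward were at low levels in wild type. AT3G07720, a kelch repeat protein (chromosome 3, 2465235 to 2467270, 2 exons), had 173, 152 and 259 CPM in the mutant libraries, against 2.48, 2.12 and 2.22 CPM in the wild-type libraries. AT3G07720 changed by 6.42 log2 units (SE 0.31, edgeR adjusted p = 9.12e-05). ATPMEPCRB, a pectin methylesterase that trims methyl groups from wall pectin (AT4G02330, chromosome 4, 1032350 to 1035055, 2 exons), had 147, 203 and 296 CPM in the mutant libraries, against 2.98, 4.12 and 5.43 CPM in the wild-type libraries. ATPMEPCRB changed by 5.69 log2 units (SE 0.38, edgeR adjusted p = 0.000212). ALMT1, the channel that releases malate from roots (AT1G08430, chromosome 1, 2658602 to 2661310, 6 exons), had 62.6, 95.1 and 114 CPM in the mutant libraries, against 1.59, 1.91 and 2.38 CPM in the wild-type libraries. ALMT1 changed by 5.53 log2 units (SE 0.34, edgeR adjusted p = 0.000136). Every mutant library lay far above every wild-type library for these 3 genes, and replicate 3 was the highest mutant library in each. The kinase gene AT5G24080 (chromosome 5, 8139111 to 8142432, 5 exons) was less even, with 50.3, 5.2 and 20 CPM in mutant cells and 0.149, 0 and 0.997 CPM in wild-type cells (log2 6.10, edgeR adjusted p = 0.00912). PES2, an enzyme that esterifies phytol in plastids, had 14.4, 2.13 and 8.06 CPM in mutant cells and 0.199, 0.25 and 0.0554 CPM in wild-type cells (log2 5.51, edgeR adjusted p = 0.00425). AT1G80450, a VQ motif protein, had 29.8, 11.8 and 4.78 CPM in mutant cells and 0.149, 0.541 and 0.332 CPM in wild-type cells (log2 5.46, edgeR adjusted p = 0.00294). In all 3 genes mutant replicate 1 was the highest library. AT5G41740, an immune receptor gene of the TIR-NBS-LRR class, had 23.2, 15.4 and 22.7 CPM in mutant cells and 0.894, 0.166 and 0.0554 CPM in wild-type cells (log2 5.75, edgeR adjusted p = 0.00198), and 13.3% of its exonic 50-base windows also occur elsewhere in the genome, so its reads may be shared. AT1G22885 averaged 9.9 ± 3.03 CPM in the mutant and 0.183 ± 0.142 CPM in wild type, but it overlaps AT1G22882 on the same strand and its level is uncertain. The call of AT5G24080 was lost with limma-voom (adjusted p over the alternatives 0.000479 to 0.0626).

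Under the same limits the largest fold changes downward were in genes with high wild-type levels that almost vanished from mutant cells. AT2G40113, a Pollen Ole e 1 allergen and extensin family gene (chromosome 2, 16750035 to 16751314, 2 exons), had 0.167, 0.828 and 0.41 CPM in the mutant libraries, against 143, 192 and 222 CPM in the wild-type libraries. AT2G40113 changed by -8.69 log2 units (SE 0.47, edgeR adjusted p = 0.000114). AT1G23160 of the GH3 family, whose members join amino acids to acyl acid hormones (chromosome 1, 8209226 to 8211486, 4 exons), had 0.0837, 0.473 and 0.683 CPM in the mutant libraries, against 93.2, 134 and 119 CPM in the wild-type libraries. AT1G23160 changed by -8.24 log2 units (SE 0.50, edgeR adjusted p = 0.000136). AT1G54010, a GDSL lipase gene (chromosome 1, 20158589 to 20160864, 4 exons), had 3.93, 3.43 and 0 CPM in the mutant libraries, against 329.9, 445 and 411 CPM in the wild-type libraries. AT1G54010 changed by -7.27 log2 units (SE 0.83, edgeR adjusted p = 0.00101). In these 3 genes the highest mutant library stayed under the lowest wild-type library by a wide margin. NAC015 (AT1G33280, chromosome 1, 12072611 to 12073965, 3 exons), also called BRN1 and one of the root cap markers above, had 0.586, 0.355 and 0.273 CPM in the mutant libraries, against 54.2, 67.1 and 64 CPM in the wild-type libraries. NAC015 changed by -7.16 log2 units (SE 0.34, edgeR adjusted p = 9.12e-05). The kinase gene AT1G03920 averaged 0.951 ± 0.606 CPM in the mutant and 126 ± 29.5 CPM in wild type (log2 -7.12, edgeR adjusted p = 0.000153), and the TatD-related DNase gene AT3G03500 averaged 1.35 ± 1.8 CPM in the mutant and 195 ± 29.4 CPM in wild type (log2 -7.02, edgeR adjusted p = 0.000845). The cytochrome P450 gene AT1G73340 averaged 0.422 ± 0.66 CPM in the mutant and 52.4 ± 6.9 CPM in wild type (log2 -6.98, edgeR adjusted p = 0.000877). BGLU35, a beta-glucosidase, averaged 6.34 ± 6.24 CPM in the mutant and 954 ± 209.9 CPM in wild type (log2 -7.19, edgeR adjusted p = 0.000782), and 23.3% of its exonic windows occur elsewhere, so part of its signal may belong to related genes.

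By absolute level, 6 genes had the largest gains in mean CPM among called nuclear genes without overlap, again outside the strip, suberin and phenylpropanoid genes. COR47, a dehydrin that protects cells under cold and drought (AT1G20440, chromosome 1, 7084409 to 7086873, 2 exons), had 6778, 2363 and 4671 CPM in the mutant libraries, against 979, 840.4 and 1475 CPM in the wild-type libraries. COR47 changed by 2.07 log2 units (SE 0.41, edgeR adjusted p = 0.00835). PEN3, an ABC transporter known for exporting defence compounds (AT1G59870, chromosome 1, 22034423 to 22040126, 8 exons), had 2900.5, 928 and 1455 CPM in the mutant libraries, against 266, 187 and 307 CPM in the wild-type libraries. PEN3 changed by 2.80 log2 units (SE 0.44, edgeR adjusted p = 0.00325). ADC2, an arginine decarboxylase at the start of polyamine synthesis (AT4G34710, chromosome 4, 16560030 to 16563044, 2 exons), had 2823, 689 and 1393 CPM in the mutant libraries, against 201, 151 and 153 CPM in the wild-type libraries. ADC2 changed by 3.28 log2 units (SE 0.49, edgeR adjusted p = 0.00279). Replicate 1 was the highest and replicate 2 the lowest mutant library for all 3. Lack of overlap between the groups was a condition of the rule. ATMS1, a methionine synthase, averaged 5838 ± 646 CPM in the mutant and 3358 ± 226 CPM in wild type (log2 0.80, edgeR adjusted p = 0.0275). FBA8, a glycolytic aldolase, averaged 2634 ± 301 CPM in the mutant and 977 ± 202 CPM in wild type (log2 1.43, edgeR adjusted p = 0.00422), and AT4G27090, which encodes ribosomal protein L14, averaged 1692 ± 526 CPM in the mutant and 490.4 ± 82.8 CPM in wild type (log2 1.79, edgeR adjusted p = 0.00377). The call of ATMS1 was lost without wild-type replicate 1, 2 or 3, without mutant replicate 3 and without the low-count filter (adjusted p over the alternatives 0.000831 to 0.121).

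By the same rule the largest losses in level included a set of related beta-glucosidases. PYK10 (AT3G09260, chromosome 3, 2840477 to 2843781, 13 exons), the main beta-glucosidase of root endoplasmic reticulum bodies, had 753, 537 and 804 CPM in the mutant libraries, against 9310.5, 9698 and 9386 CPM in the wild-type libraries. PYK10 changed by -3.76 log2 units (SE 0.27, edgeR adjusted p = 0.000212). Its relatives BGLU21 (AT1G66270, chromosome 1, 24699868 to 24703166, 13 exons) and BGLU22 (AT1G66280, chromosome 1, 24706512 to 24709996, 13 exons) averaged 412 ± 216 CPM in the mutant and 3928 ± 442 CPM in wild type (log2 -3.25, edgeR adjusted p = 0.00158) and 163 ± 50.5 CPM in the mutant and 2168 ± 149 CPM in wild type (log2 -3.73, edgeR adjusted p = 0.000306). AT5G26260, a TRAF-like gene (chromosome 5, 9200271 to 9202461, 7 exons), had 30, 83.5 and 122 CPM in the mutant libraries, against 3653, 3798 and 3508 CPM in the wild-type libraries. AT5G26260 changed by -5.54 log2 units (SE 0.53, edgeR adjusted p = 0.000584). HSC70-1, a cytosolic chaperone, averaged 3037 ± 698 CPM in the mutant and 6269.7 ± 1025 CPM in wild type (log2 -1.05, edgeR adjusted p = 0.0208). The uncharacterized locus AT2G16586 averaged 19953 ± 6149 CPM in the mutant and 44056 ± 9209.5 CPM in wild type (log2 -1.14, edgeR adjusted p = 0.0351), but 39.3% of its exonic windows occur elsewhere in the genome, so its count is uncertain. The call of HSC70-1 was lost without wild-type replicate 1 or 2 and without mutant replicate 3 (adjusted p over the alternatives 0.000401 to 0.089). The call of AT2G16586 was lost without wild-type replicate 1, 2 or 3 and without mutant replicate 3 (adjusted p over the alternatives 0.00128 to 0.128).

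**Figure D3:**
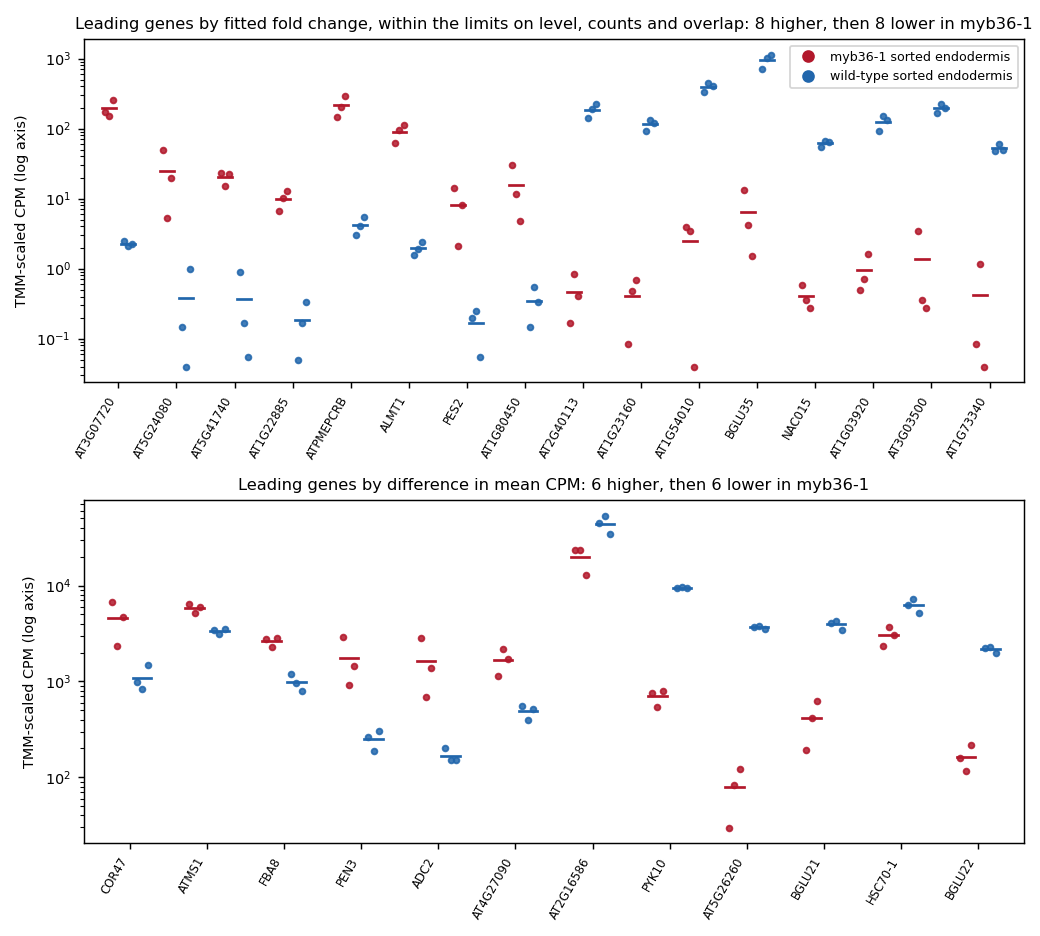
TMM-scaled CPM (log axis, 0 CPM drawn at 0.04) of the 16 genes that led by fitted fold change (top) and the 12 that led by difference in mean level (bottom) within the limits on level, counts and overlap given in the text, myb36-1 in red to the left and wild type in blue to the right, points for libraries and lines for means. Higher genes stand left of lower genes in each panel, and the libraries of both groups do not overlap in any of the 28.

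Jasmonate is an oxylipin hormone of wounding and defence, made in steps from plastid lipids by lipoxygenases (LOX), allene oxide synthase (AOS), allene oxide cyclases (AOC), reductase (OPR3) and peroxisomal oxidation (OPCL1, ACX1). Of 15 tested members of this list, 7 were higher (46.7%), 1 was lower and 7 were not called, at a median log2 change of 1.63. AOS had 844, 144 and 249 CPM in the mutant libraries, against 75.5, 49 and 65.1 CPM in the wild-type libraries (log2 change 2.71, SE 0.61, edgeR adjusted p = 0.0134), and AOC1 had 168, 5.2 and 27.2 CPM in the mutant libraries, against 2.68, 3.75 and 4.49 CPM in the wild-type libraries. AOC1 changed by 4.21 log2 units (SE 1.08, edgeR adjusted p = 0.022). In both genes, as in most of the list, mutant replicate 1 stood far above mutant replicates 2 and 3. MYC2, the transcription factor that carries the jasmonate signal, had 899, 474 and 679 CPM in the mutant libraries, against 166, 120.4 and 213 CPM in the wild-type libraries. MYC2 changed by 2.04 log2 units (SE 0.32, edgeR adjusted p = 0.00315). LOX4, OPCL1 and ACX1 were higher by 1.78, 1.12 and 1.81 on the log2 scale (edgeR adjusted p = 0.024, 0.0276 and 0.0187), and AOC2 by 3.40 (edgeR adjusted p = 0.0494). LOX3 did not pass the test (686, 54.5 and 115 CPM in mutant cells and 71.5, 22.2 and 57.2 CPM in wild-type cells, log2 2.50, edgeR adjusted p = 0.0678), nor did the catabolic enzyme CYP94B3 (773, 57.1 and 140.1 CPM in mutant cells and 192, 131 and 188 CPM in wild-type cells, log2 0.93, edgeR adjusted p = 0.417). LOX6, a lipoxygenase that acts in roots, went the other way with 12.2, 9.58 and 14.3 CPM in the mutant libraries, against 109, 101 and 111 CPM in the wild-type libraries. LOX6 changed by -3.15 log2 units (SE 0.23, edgeR adjusted p = 0.000257). Without mutant replicate 1 the median of the list was 0.74, and 6 members were higher and 4 lower. The jasmonate list had 2, 1 and 2 higher members without wild-type replicate 1, 2 and 3. The jasmonate list had 4, 1 and 1 lower members without mutant replicate 1, 2 and 3. The call of AOS was lost without wild-type replicate 2 or 3 (adjusted p over the alternatives 1.22e-05 to 0.0706). The calls of OPCL1 and LOX4 were lost without wild-type replicate 1, 2 or 3 (adjusted p over the alternatives 0.00241 to 0.112 and 0.000965 to 0.0965). The call of ACX1 was lost without wild-type replicate 1 or 2 (adjusted p over the alternatives 0.000601 to 0.0881). The call of AOC1 was lost without wild-type replicate 1, 2 or 3 and with limma-voom (adjusted p over the alternatives 0.0021 to 0.0951). The call of AOC2 was lost without wild-type replicate 1, 2 or 3, without mutant replicate 1, with limma-voom and under the replicate block (adjusted p over the alternatives 0.00845 to 0.175). AOC1 had a log2 change of 2.13 without mutant replicate 1.

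Receptors at the plasma membrane read microbial molecules and the plant's own damage peptides, and pass the signal on through cytoplasmic kinases. Of the immune receptor list, 8 of 12 tested members were higher, 0 were lower and 4 were not called, at a median log2 change of 1.25. The list also holds the regulators PAD4 and EDS1, which are neither receptors nor kinases, and both were among the higher members. The promoters of 3 members are shown because both Pep peptide receptors and the reporter kinase FRK1 were higher, and because the W-box, the element read by WRKY factors, was searched for in them. Each sequence is the 250 bases before the gene start, 5′ to 3′ on the gene's strand, on TAIR10.1, with matches to TTGACC or TTGACT on either strand in capitals.
FRK1 (chr2:8329945-8330194, minus strand): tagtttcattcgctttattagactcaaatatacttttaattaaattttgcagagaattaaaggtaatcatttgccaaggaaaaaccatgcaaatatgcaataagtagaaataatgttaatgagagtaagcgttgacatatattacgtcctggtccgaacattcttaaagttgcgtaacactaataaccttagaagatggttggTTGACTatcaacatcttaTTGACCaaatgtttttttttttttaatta
PEPR1 (chr1:27483990-27484239, plus strand): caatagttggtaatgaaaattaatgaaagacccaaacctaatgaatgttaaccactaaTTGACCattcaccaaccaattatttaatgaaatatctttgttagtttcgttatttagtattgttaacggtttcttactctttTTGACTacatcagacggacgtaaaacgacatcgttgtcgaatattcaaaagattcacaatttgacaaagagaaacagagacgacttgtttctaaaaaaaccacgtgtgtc
PEPR2 (chr1:6106073-6106322, plus strand): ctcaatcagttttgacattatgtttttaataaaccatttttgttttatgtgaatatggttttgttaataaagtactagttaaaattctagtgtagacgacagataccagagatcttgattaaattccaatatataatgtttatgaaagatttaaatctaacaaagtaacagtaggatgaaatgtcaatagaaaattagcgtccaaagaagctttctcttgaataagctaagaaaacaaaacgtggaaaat
FRK1 held 2 matches, whose first bases lie at -47 and -29, PEPR1 held 2 at -192 and -110, and PEPR2 held none in this window. Of all 26712 promoters of this length, 28.5% hold a match, as do 7 of the 13 promoters of the immune list and 5 of its 8 higher members. A match describes letters in a window and says nothing of binding.

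FRK1, a kinase gene switched on by bacterial flagellin (AT2G19190, chromosome 2, 8326049 to 8329944, 13 exons), had 6.19, 7.21 and 11.8 CPM in the mutant libraries, against 0.348, 0.166 and 0.111 CPM in the wild-type libraries. FRK1 changed by 5.27 log2 units (SE 0.67, edgeR adjusted p = 0.00148). PEPR1, a receptor of Pep damage peptides, had 751, 176 and 301 CPM in the mutant libraries, against 86.3, 54.2 and 92.7 CPM in the wild-type libraries (log2 change 2.40, SE 0.52, edgeR adjusted p = 0.0113), and its relative PEPR2 had 339.8, 63.2 and 147 CPM in the mutant libraries, against 32, 14.5 and 28 CPM in the wild-type libraries. PEPR2 changed by 2.89 log2 units (SE 0.60, edgeR adjusted p = 0.00965). FRK1 was highest in mutant replicate 3, whereas both Pep receptors were highest in mutant replicate 1. PAD4, a regulator of resistance through salicylic acid, had 98.6, 65.8 and 76.3 CPM in the mutant libraries, against 18, 20.7 and 15.8 CPM in the wild-type libraries. PAD4 changed by 2.14 log2 units (SE 0.24, edgeR adjusted p = 0.000932). Its partner EDS1, the chitin receptor components CERK1 and LYK5 and the cytoplasmic kinase BIK1 were higher by 1.15, 1.32, 1.19 and 1.47 on the log2 scale (edgeR adjusted p = 0.0174, 0.018, 0.0386 and 0.0227). The co-receptor BAK1 averaged 222 ± 51.2 CPM in the mutant and 216 ± 11.6 CPM in wild type and did not pass the test (log2 0.04, edgeR adjusted p = 0.909). FLS2, the flagellin receptor, was near 0 in both groups, with 1, 0.355 and 0 CPM in mutant cells and 0.447, 0.999 and 1.11 CPM in wild-type cells. The immune receptor list had 4, 2 and 6 higher members without wild-type replicate 1, 2 and 3. The calls of PEPR1 and PEPR2 were lost without wild-type replicate 2 (adjusted p over the alternatives 1.34e-05 to 0.0606 and 2.19e-06 to 0.0509). The calls of EDS1 and CERK1 were lost without wild-type replicate 1 or 2 (adjusted p over the alternatives 0.00104 to 0.0845 and 0.000855 to 0.0897). The call of LYK5 was lost without wild-type replicate 1, 2 or 3 (adjusted p over the alternatives 0.00825 to 0.131). The call of BIK1 was lost without wild-type replicate 1, 2 or 3 and under the replicate block (adjusted p over the alternatives 0.000807 to 0.101).

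**Figure D4:**
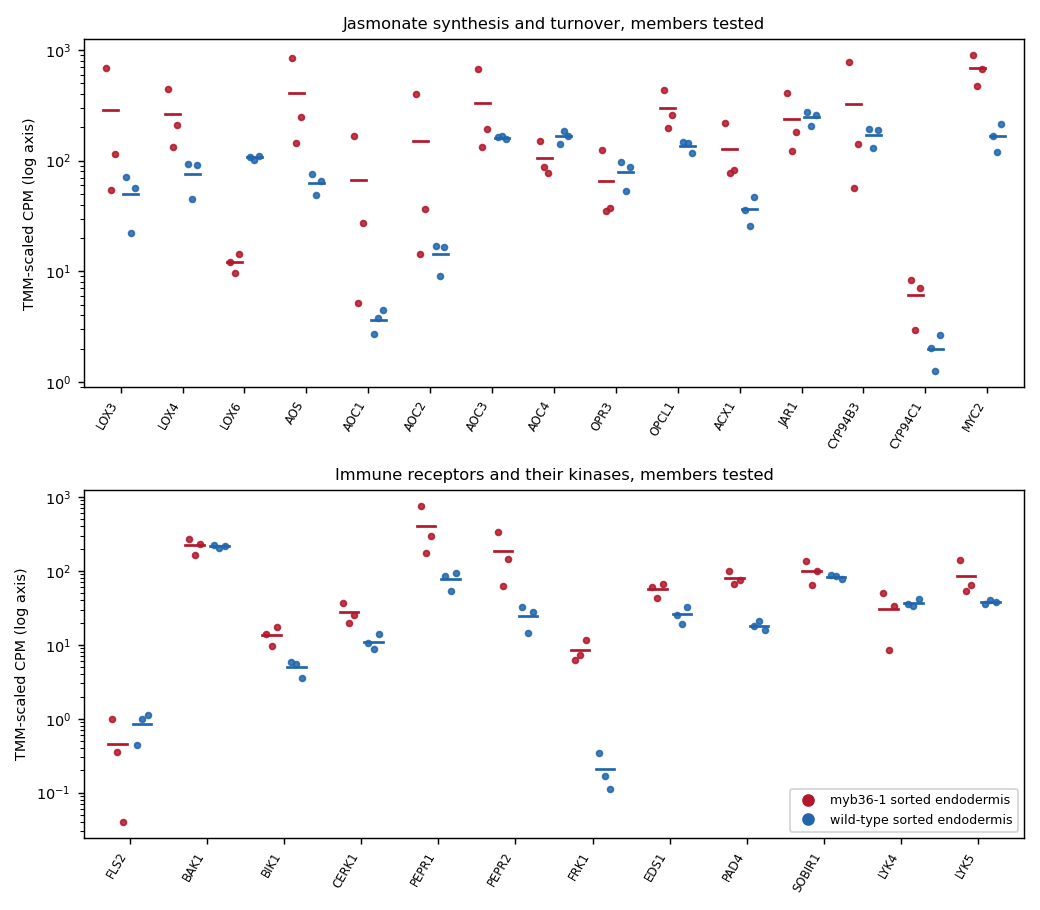
TMM-scaled CPM (log axis, 0 CPM drawn at 0.04) of the tested jasmonate genes (top) and genes of the immune receptor list (bottom), myb36-1 in red to the left and wild type in blue to the right, points for libraries and lines for means. Mutant replicate 1 is the highest mutant library for most jasmonate genes, at 168 CPM for AOC1 against 5.2 and 27.2 CPM in mutant replicates 2 and 3.

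Other receptor kinase families had more members higher than lower. Of 13 tested cysteine-rich receptor-like kinases, 6 were higher and 2 lower (median log2 fold change 1.25), led by CRK31 with 12.5, 7.33 and 4.51 CPM in mutant cells and 0.348, 0.583 and 0.942 CPM in wild-type cells (log2 3.69, edgeR adjusted p = 0.00514), while CRK34 was lower (log2 -2.19, edgeR adjusted p = 0.0331). Wall-associated and lectin receptor kinases counted 10 higher and 2 lower of 52, a share of 19.2% higher against 15.6% over all genes. The S-locus lectin kinase gene AT2G19130 had 16.6, 14.3 and 8.88 CPM in mutant cells and 0.149, 0.375 and 0.443 CPM in wild-type cells (log2 5.33, edgeR adjusted p = 0.000805), and the lectin kinase gene AT3G45430 was lower (log2 -1.87, edgeR adjusted p = 0.0487). Leucine-rich repeat kinases counted 33 higher (25.4%) and 15 lower of 130, from AT1G53440 at 3.75 to AT1G51830 at -4.16 on the log2 scale (edgeR adjusted p = 0.00225 and 0.00319). The pathogenesis-related genes PR1, PR2 and PR5 did not reach the count filter. PR3, the basic chitinase HCHIB, was higher with 162, 50.5 and 70.4 CPM in mutant cells and 10.6, 14.9 and 13.7 CPM in wild-type cells (log2 2.86, edgeR adjusted p = 0.00311). The cysteine-rich kinases had 0 each lower members without wild-type replicate 1, 2 and 3. The wall-associated and lectin kinases had 5, 6 and 6 higher and 0 each lower members without wild-type replicate 1, 2 and 3. The wall-associated and lectin kinases had 6, 6 and 3 lower members without mutant replicate 1, 2 and 3. The leucine-rich repeat kinases had 19, 19 and 24 higher and 7, 5 and 5 lower members without wild-type replicate 1, 2 and 3. The call of CRK34 was lost without wild-type replicate 1, 2 or 3 (adjusted p over the alternatives 0.000563 to 0.159). The call of AT3G45430 was lost without wild-type replicate 1, 2 or 3, without mutant replicate 2 and with limma-voom (adjusted p over the alternatives 0.00547 to 0.164). The cysteine-rich receptor-like kinases had a median of 0.82 without wild-type replicate 1.

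Downstream of such receptors, calcium-binding and WRKY proteins relay defence signals. WRKY factors counted 16 higher (28.1%) and 8 lower of 57, at a median log2 change of 0.33. WRKY71 had 7.87, 33.7 and 46.2 CPM in mutant cells and 1.74, 2.16 and 1.11 CPM in wild-type cells (log2 4.11, edgeR adjusted p = 0.00352), and WRKY9 had 1.59, 12.7 and 36.4 CPM in mutant cells and 130.2, 149.6 and 96.5 CPM in wild-type cells (log2 -2.91, edgeR adjusted p = 0.0336). Calmodulin-like proteins counted 7 higher and 14 lower of 51. CML37 had 273, 77.1 and 151 CPM in mutant cells and 7.4, 6.62 and 11 CPM in wild-type cells (log2 4.33, edgeR adjusted p = 0.000971), and CML43 had 0.921, 4.38 and 0.41 CPM in mutant cells and 10.3, 12.7 and 10.2 CPM in wild-type cells (log2 -2.54, edgeR adjusted p = 0.038). Zinc finger factors of the ZAT group counted 3 higher and 0 lower of 7, led by RHL41, also called ZAT12 and known from oxidative stress, with 519, 216 and 318 CPM in mutant cells and 92.2, 66.2 and 126 CPM in wild-type cells (log2 1.89, edgeR adjusted p = 0.00795). U-box and RING ubiquitin ligases lay near the background, with 33 higher and 27 lower of 232, and F-box proteins counted 6 higher (3.95%) and 11 lower (7.24%) of 152. PUB54, a U-box ligase, averaged 21.5 ± 5.07 CPM in the mutant and 1.2 ± 0.16 CPM in wild type (log2 4.16, edgeR adjusted p = 0.000393). The WRKY family had 3, 3 and 5 higher and 3 each lower members without wild-type replicate 1, 2 and 3. The calmodulin-like proteins had 4, 2 and 4 higher and 8, 8 and 9 lower members without wild-type replicate 1, 2 and 3. The U-box and RING ligases had 10, 11 and 17 higher and 3, 5 and 5 lower members without wild-type replicate 1, 2 and 3. The U-box and RING ligases had 45, 24 and 27 lower members without mutant replicate 1, 2 and 3. The F-box proteins had 2 each higher and 5, 3 and 5 lower members without wild-type replicate 1, 2 and 3. The F-box proteins had 26, 22 and 17 lower members without mutant replicate 1, 2 and 3. The call of WRKY9 was lost without wild-type replicate 1, 2 or 3 and without mutant replicate 2 (adjusted p over the alternatives 0.00338 to 0.105). The call of CML43 was lost without wild-type replicate 1, 2 or 3 and without mutant replicate 1 (adjusted p over the alternatives 0.00244 to 0.133). The WRKY family had a median of 0.15 with limma-voom, 0.13 under the replicate block, 0.21 and 0.50 without wild-type replicate 2 and 3, and 0.16 and 0.57 without mutant replicate 1 and 2. CML43 had a log2 change of -3.99 without mutant replicate 2.

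ABC transporters move lipids, hormones and defence compounds across membranes. The suberin half-transporters are counted here but not named: 30 of 87 tested family members were higher (34.5%) and 9 lower (10.3%), at a median log2 change of 0.49. ABCG16, a half-size transporter linked to jasmonate export in Arabidopsis (AT3G55090, chromosome 3, 20416183 to 20418910, 1 exon), had 303, 85.5 and 146 CPM in the mutant libraries, against 7.05, 7.03 and 7.26 CPM in the wild-type libraries. ABCG16 changed by 4.65 log2 units (SE 0.48, edgeR adjusted p = 0.000701). ABCG41 (AT4G15215, chromosome 4, 8671349 to 8679176, 27 exons) had 7.7, 10.9 and 5.47 CPM in the mutant libraries, against 107, 104 and 118 CPM in the wild-type libraries. ABCG41 changed by -3.77 log2 units (SE 0.29, edgeR adjusted p = 0.000306). Replicate 1 was the highest mutant library for ABCG16, and neither gene's groups overlapped. MATE efflux carriers had 5 higher and 5 lower of 28, or 17.9% each way, near the 15.6% and 12.9% over all genes. AT5G44050 had 48.3, 5.56 and 34.6 CPM in mutant cells and 1.94, 0.416 and 2.94 CPM in wild-type cells (log2 4.08, edgeR adjusted p = 0.0123), and AT1G71140 had 0, 0 and 0 CPM in mutant cells and 5.91, 2.25 and 11.6 CPM in wild-type cells, which is at least 56.7-fold lower in the mutant against 3 counts summed over that group. The ABC transporters had 17, 13 and 21 higher and 4, 3 and 3 lower members without wild-type replicate 1, 2 and 3. The ABC transporters had 15, 9 and 10 lower members without mutant replicate 1, 2 and 3. The MATE carriers had 3, 4 and 4 higher and 4, 3 and 4 lower members without wild-type replicate 1, 2 and 3. The MATE carriers had 6, 8 and 8 lower members without mutant replicate 1, 2 and 3. The call of AT5G44050 was lost without wild-type replicate 1 (adjusted p over the alternatives 2.77e-06 to 0.051). The ABC transporters had a median of 0.27 without mutant replicate 1.

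Carriers of metals, sugars and peptides had calls in both directions, beside background shares of 15.6% higher and 12.9% lower. Shares higher and lower were 12.5% and 21.9% for metals, 14.3% and 21.4% for sugars and 8.7% and 13% for peptides. Plasma membrane pumps had 20% and 10%, and the vacuolar pump had 5.56% and 16.7%. Of 32 metal transporters, 4 were higher and 7 lower. YSL2, which moves metal chelates of nicotianamine, had 57.8, 122 and 104 CPM in mutant cells and 8.89, 7.32 and 13.6 CPM in wild-type cells (log2 3.25, edgeR adjusted p = 0.000971), and its relative YSL7 had 1.42, 2.13 and 0 CPM in mutant cells and 22.5, 23.9 and 23.2 CPM in wild-type cells (log2 -4.24, edgeR adjusted p = 0.00535). Sugar transporters counted 2 higher and 3 lower of 14, with the polyol carrier PMT5 at 111, 77.2 and 71.9 CPM in mutant cells and 12.5, 12 and 17.6 CPM in wild-type cells (log2 2.63, edgeR adjusted p = 0.000719) and the hexose importer STP1 at 12, 21.2 and 31.4 CPM in mutant cells and 84.6, 80.8 and 96.7 CPM in wild-type cells (log2 -2.03, edgeR adjusted p = 0.00431). NPF and peptide transporters counted 2 higher and 3 lower of 23, with OPT2 and OPT4 at 2.88 and -2.02 on the log2 scale (edgeR adjusted p = 0.0432 and 0.0178). Plasma membrane proton pumps counted 2 higher and 1 lower of 10, with HA11 higher (log2 1.21, edgeR adjusted p = 0.0125). The fall of HA7 (log2 -1.10, edgeR adjusted p = 0.037) is uncertain, since the gene overlaps another on its own strand. Subunits of the vacuolar proton pump counted 1 higher and 3 lower of 18, with VHA-C3 at 0.81 and VAG2 at -1.09 (edgeR adjusted p = 0.0193 and 0.00761). The sugar transporters had 1, 2 and 1 lower members without wild-type replicate 1, 2 and 3. The sugar transporters had 6, 3 and 3 lower members without mutant replicate 1, 2 and 3. The peptide transporters had 0, 0 and 2 higher and 1, 0 and 0 lower members without wild-type replicate 1, 2 and 3. The peptide transporters had 7, 3 and 6 lower members without mutant replicate 1, 2 and 3. The plasma membrane pumps had 1, 0 and 1 higher and 0 each lower members without wild-type replicate 1, 2 and 3. The plasma membrane pumps had 1, 2 and 2 higher and 2, 0 and 1 lower members without mutant replicate 1, 2 and 3. The vacuolar pump had 0 each higher members without wild-type replicate 1, 2 and 3. The vacuolar pump had 7, 3 and 2 lower members without mutant replicate 1, 2 and 3. The call of OPT2 was lost without wild-type replicate 1 or 2, without mutant replicate 2 or 3 and with libraries thinned to equal depth (adjusted p over the alternatives 0.00416 to 0.155). The calls of OPT4 and VHA-C3 were lost without wild-type replicate 1, 2 or 3 (adjusted p over the alternatives 0.000315 to 0.107 and 0.00129 to 0.0921). The call of HA11 was lost without wild-type replicate 2 (adjusted p over the alternatives 0.000436 to 0.0625). The call of HA7 was lost without wild-type replicate 1, 2 or 3 and without mutant replicate 1 or 2 (adjusted p over the alternatives 0.0117 to 0.134).

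Aromatic amino acids feed flavonoids, indolic defence compounds and lignin. In the shikimate pathway, 6 of 15 tested genes were higher (40%) and 1 was lower, at a median log2 change of 0.67. EMB1144, the chorismate synthase, had 349.5, 307 and 397 CPM in the mutant libraries, against 74.8, 63.8 and 72.6 CPM in the wild-type libraries. EMB1144 changed by 2.32 log2 units (SE 0.20, edgeR adjusted p = 0.000439). ADT4, an arogenate dehydratase at the last step to phenylalanine, had 58.6, 24.1 and 28.6 CPM in the mutant libraries, against 4.77, 5.62 and 5.48 CPM in the wild-type libraries. ADT4 changed by 2.81 log2 units (SE 0.38, edgeR adjusted p = 0.00181). Both genes had every mutant library above every wild-type library. CM2, a chorismate mutase, was lower (log2 -1.16, edgeR adjusted p = 0.0427). Tryptophan synthesis had 3 of 7 genes higher and 0 lower, led by TRP1, the anthranilate phosphoribosyltransferase, with 201, 119 and 85.8 CPM in mutant cells and 12.9, 10.2 and 18.2 CPM in wild-type cells (log2 3.30, edgeR adjusted p = 0.00104). TSB1 and TSA1, the beta and alpha subunits of tryptophan synthase, were higher by 2.00 and 1.22 on the log2 scale (edgeR adjusted p = 0.00977 and 0.0052). The shikimate pathway had 3 each higher and 0 each lower members without wild-type replicate 1, 2 and 3. The shikimate pathway had 1, 1 and 0 lower members without mutant replicate 1, 2 and 3. The call of CM2 was lost without wild-type replicate 1, 2 or 3, without mutant replicate 3, without the low-count filter, with limma-voom and under the replicate block (adjusted p over the alternatives 0.00281 to 0.202). The call of TSB1 was lost without wild-type replicate 2 (adjusted p over the alternatives 2.27e-05 to 0.0562).

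Flavonoid genes showed the same direction at several steps. Of 8 tested members, 5 were higher (62.5%), 0 were lower and 3 were not called, at a median log2 change of 1.38. MYB12, the activator of flavonol synthesis in roots, had 66.1, 25.5 and 55.2 CPM in the mutant libraries, against 5.27, 6.41 and 7.98 CPM in the wild-type libraries. MYB12 changed by 2.90 log2 units (SE 0.39, edgeR adjusted p = 0.00173). FLS1, the flavonol synthase, had 388, 181 and 178 CPM in the mutant libraries, against 41.7, 35.9 and 29.1 CPM in the wild-type libraries. FLS1 changed by 2.81 log2 units (SE 0.36, edgeR adjusted p = 0.00145). F3H, the flavanone hydroxylase before it, had 769.9, 374 and 417 CPM in the mutant libraries, against 103, 80.6 and 88.3 CPM in the wild-type libraries. F3H changed by 2.52 log2 units (SE 0.32, edgeR adjusted p = 0.00138). Replicate 1 was the highest mutant library in each of the 3, and the groups did not overlap. The isomerase TT5 and the glucosyltransferase UGT78D2 were higher by 1.71 and 1.05 on the log2 scale (edgeR adjusted p = 0.00543 and 0.00609). Chalcone synthase TT4, the entry enzyme, had 493, 199.6 and 156 CPM in mutant cells and 499, 452 and 539 CPM in wild-type cells and did not pass the test (log2 -0.81, edgeR adjusted p = 0.173). DFR, MYB111 and LDOX were at or near 0 in both groups.

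Sulfur metabolism and glucosinolates, the sulfur-rich defence compounds of the Brassicaceae, were counted as separate lists. Of 12 sulfur genes 4 were higher and 2 lower. SIR, the sulfite reductase, had 541, 487 and 497 CPM in the mutant libraries, against 148, 123 and 138 CPM in the wild-type libraries (log2 change 1.90, SE 0.19, edgeR adjusted p = 0.000697), with even levels within each group. APS1, APR2 and GSH1, further enzymes of sulfate reduction and glutathione synthesis, were higher by 1.44, 1.56 and 0.86 on the log2 scale (edgeR adjusted p = 0.00938, 0.00512 and 0.0338). SULTR1;2, a sulfate importer of the root surface, had 3.18, 4.14 and 20.6 CPM in mutant cells and 43.9, 53.3 and 56.3 CPM in wild-type cells (log2 -2.48, edgeR adjusted p = 0.024). ATSDI1, induced by sulfur deficiency, had 0 counts in all mutant libraries against 1.09, 1.33 and 2.55 CPM in wild type. Glucosinolate synthesis counted 3 higher and 0 lower of 14, with CYP83B1 (log2 1.61, edgeR adjusted p = 0.00464), SUR1 (log2 1.16, edgeR adjusted p = 0.00605) and SOT16 (log2 0.73, edgeR adjusted p = 0.0306) higher and the activator MYB34 at 35.5, 37.1 and 39.5 CPM in mutant cells and 42.9, 49.4 and 53 CPM in wild-type cells (log2 -0.37, edgeR adjusted p = 0.189). The sulfur list had 3, 2 and 3 higher and 0 each lower members without wild-type replicate 1, 2 and 3. The sulfur list had 3, 1 and 2 lower members without mutant replicate 1, 2 and 3. The glucosinolate list had 2, 0 and 0 lower members without mutant replicate 1, 2 and 3. The call of APS1 was lost without wild-type replicate 2 (adjusted p over the alternatives 9.89e-05 to 0.054). The call of GSH1 was lost without wild-type replicate 1, 2 or 3 and without mutant replicate 3 (adjusted p over the alternatives 0.00349 to 0.139). The call of SULTR1;2 was lost without wild-type replicate 1, 2 or 3 and without mutant replicate 2 (adjusted p over the alternatives 0.000522 to 0.0815). The call of ATSDI1 was lost without wild-type replicate 1, 2 or 3 and under the replicate block (adjusted p over the alternatives 0.000547 to 0.0825). The call of SOT16 was lost without wild-type replicate 1, 2 or 3, without mutant replicate 2 or 3 and without the low-count filter (adjusted p over the alternatives 0.0119 to 0.174). SULTR1;2 had a log2 change of -3.82 without mutant replicate 3.

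Large enzyme families of specialised metabolism differed in balance. Cytochromes P450, oxidases of hormones and secondary metabolites, counted 18 higher (13.7%) and 43 lower (32.8%) of 131, at a median log2 change of -0.41. The CYP705A subfamily of P450 genes, singled out after its values were seen, had 1 higher and 16 lower of 22 tested. CYP86A8, a fatty acid hydroxylase of cutin synthesis, had 6.36, 14 and 13.5 CPM in mutant cells and 0.199, 0.333 and 0.443 CPM in wild-type cells (log2 5.09, edgeR adjusted p = 0.00107). UDP-glycosyltransferases counted 18 higher (18%) and 14 lower (14%) of 100, near the background, with UGT84A1 at 7.87, 15.7 and 19.8 CPM in mutant cells and 0.447, 0.291 and 0.388 CPM in wild-type cells (log2 5.24, edgeR adjusted p = 0.000715) and AT4G19460 at 0.418, 1.66 and 2.73 CPM in mutant cells and 9.34, 16.1 and 14.1 CPM in wild-type cells (log2 -3.08, edgeR adjusted p = 0.00984). Glutathione transferases, which detoxify reactive compounds, counted 9 higher (20%) and 8 lower (17.8%) of 45. GSTU22 had 4.77, 5.91 and 7.11 CPM in mutant cells and 114, 122 and 120.0 CPM in wild-type cells (log2 -4.33, edgeR adjusted p = 0.000116), and GSTF7 averaged 21.6 ± 11.1 CPM in the mutant and 0.913 ± 0.202 CPM in wild type (log2 4.55, edgeR adjusted p = 0.00112), with 10% of its exonic windows found elsewhere. Berberine bridge-like oxidases counted 4 higher and 1 lower of 11, led by AT4G20830 with 2018, 681 and 1123 CPM in mutant cells and 150.0, 139 and 161 CPM in wild-type cells (log2 3.08, edgeR adjusted p = 0.00148), while AT1G30730 was lower (log2 -1.95, edgeR adjusted p = 0.00599). Beta-glucosidases counted 2 higher and 8 lower (32%) of 25, a count that includes PYK10 and its relatives described above. The P450 family had 11, 9 and 9 higher and 30, 26 and 32 lower members without wild-type replicate 1, 2 and 3. The glycosyltransferases had 11, 11 and 12 higher and 8, 6 and 8 lower members without wild-type replicate 1, 2 and 3. The glycosyltransferases had 23, 16 and 17 lower members without mutant replicate 1, 2 and 3. The glutathione transferases had 5, 5 and 6 higher and 4, 3 and 4 lower members without wild-type replicate 1, 2 and 3. The glutathione transferases had 13, 6 and 6 lower members without mutant replicate 1, 2 and 3. The beta-glucosidases had 1 each higher members without wild-type replicate 1, 2 and 3. The call of AT4G19460 was lost without wild-type replicate 2 (adjusted p over the alternatives 1.19e-05 to 0.0576). The P450 family had a median of -0.23 with DESeq2 and -0.67 without mutant replicate 1.

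Dioxygenases, lipases and proteases gave further single genes. Dioxygenases that use 2-oxoglutarate counted 6 higher and 11 lower of 58. AT2G30840 averaged 9.66 ± 2.68 CPM in the mutant and 0.514 ± 0.0583 CPM in wild type (log2 4.21, edgeR adjusted p = 0.0012). AT4G25310 had 1 count in all 3 mutant libraries, which is 303-fold lower in the mutant, with a counting interval of 54.1 to 11968. GDSL lipases counted 8 higher and 8 lower of 34, with AT3G50400 at 23.5, 25.1 and 17.1 CPM in mutant cells and 0.348, 0.791 and 0.499 CPM in wild-type cells (log2 5.29, edgeR adjusted p = 0.000368). Aspartyl proteases counted 14 higher (30.4%) and 6 lower of 46. AT2G39710 had 5.52, 12.1 and 2.6 CPM in mutant cells and 0.199, 0.416 and 0 CPM in wild-type cells (log2 4.93, edgeR adjusted p = 0.0122), and the root cap marker AT4G04460 had 2.76, 0.946 and 0.273 CPM in mutant cells and 67.1, 69.5 and 87.2 CPM in wild-type cells (log2 -5.70, edgeR adjusted p = 0.000715). Subtilases counted 3 higher and 2 lower of 21, with SBT1.3 averaging 26.5 ± 3.7 CPM in the mutant and 3.96 ± 0.65 CPM in wild type (log2 2.74, edgeR adjusted p = 0.000735) and AIR3, an auxin-induced protease of lateral root sites, at 2.93, 4.26 and 24.9 CPM in mutant cells and 280.0, 336 and 306 CPM in wild-type cells (log2 -4.87, edgeR adjusted p = 0.00362). The dioxygenases had 3 each higher and 3 each lower members without wild-type replicate 1, 2 and 3. The dioxygenases had 18, 11 and 10 lower members without mutant replicate 1, 2 and 3. The GDSL lipases had 5 each higher members without wild-type replicate 1, 2 and 3. The aspartyl proteases had 6, 8 and 7 higher and 4, 2 and 3 lower members without wild-type replicate 1, 2 and 3. The aspartyl proteases had 10, 5 and 7 lower members without mutant replicate 1, 2 and 3. The subtilases had 1, 2 and 1 higher and 1 each lower members without wild-type replicate 1, 2 and 3. The subtilases had 2, 1 and 3 lower members without mutant replicate 1, 2 and 3. The call of AT2G39710 was lost without wild-type replicate 1 (adjusted p over the alternatives 2.59e-06 to 0.0622).

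Among cell wall genes, more of the structural proteins were lower than higher. Extensins and proline-rich wall proteins counted 5 higher and 15 lower (41.7%) of 36, at a median log2 change of -1.09. Root hairs are a known site of extensins, and the root hair and epidermis markers summed to 47.6 to 57.9 CPM in the mutant and 259 to 329 CPM in wild type; their part in this count was not tested. PELPK1 went the other way with 101, 107 and 51.5 CPM in mutant cells and 1.94, 6.53 and 4.15 CPM in wild-type cells (log2 4.35, edgeR adjusted p = 0.00101). Xyloglucan endotransglucosylases, which cut and rejoin wall hemicellulose, counted 3 higher and 7 lower of 23. XTH9 had 8.62, 17 and 10.8 CPM in mutant cells and 2.14, 1.25 and 1.88 CPM in wild-type cells (log2 2.79, edgeR adjusted p = 0.004), and XTH12 had 0.335, 2.13 and 11.1 CPM in mutant cells and 26, 28.5 and 39.4 CPM in wild-type cells (log2 -2.84, edgeR adjusted p = 0.0472). Expansins, which loosen walls, counted 5 higher and 6 lower of 19. EXPA15 had 33.3, 73 and 47.6 CPM in mutant cells and 6.16, 3.29 and 2.05 CPM in wild-type cells (log2 3.74, edgeR adjusted p = 0.00149), and EXPA14 had 4.1, 4.14 and 4.1 CPM in mutant cells and 93.7, 93.7 and 75.1 CPM in wild-type cells (log2 -4.41, edgeR adjusted p = 0.000106), so that 2 members of the same subfamily lay far apart. The xyloglucan enzymes had 1, 1 and 2 higher and 5, 5 and 4 lower members without wild-type replicate 1, 2 and 3. The xyloglucan enzymes had 3, 5 and 4 higher members without mutant replicate 1, 2 and 3. The expansins had 3 each higher members without wild-type replicate 1, 2 and 3. The call of XTH12 was lost without wild-type replicate 1, 2 or 3 and without mutant replicate 2 (adjusted p over the alternatives 0.00379 to 0.128). XTH12 had a log2 change of -4.77 without mutant replicate 3.

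Enzymes of wall polymers also split. Cellulose synthases and cellulose synthase-like enzymes counted 2 higher and 9 lower (32.1%) of 28. CESA5, a cellulose synthase of primary walls, averaged 136 ± 61.1 CPM in the mutant and 60.5 ± 10.2 CPM in wild type (log2 1.17, edgeR adjusted p = 0.0363). CSLA11 had 1 count in all mutant libraries and was 158-fold lower in the mutant, with a counting interval of 28.2 to 6266. Pectin methylesterases and their inhibitors counted 5 higher and 11 lower of 38. ATPMEPCRB was the leading rise, and AT3G47400 had 1.59, 1.89 and 2.73 CPM in mutant cells and 32.4, 42.4 and 48.6 CPM in wild-type cells (log2 -4.33, edgeR adjusted p = 0.000305). Genes annotated as pectin lyase-like or polygalacturonase counted 7 higher and 12 lower of 46. Among them PME5, a pectin methylesterase by its name, averaged 14.1 ± 7.51 CPM in the mutant and 2.13 ± 0.582 CPM in wild type (log2 2.72, edgeR adjusted p = 0.0085). AT2G43870 averaged 1.06 ± 0.932 CPM in the mutant and 16.3 ± 3.69 CPM in wild type (log2 -3.88, edgeR adjusted p = 0.00952). Fasciclin-like and arabinogalactan proteins counted 3 higher and 9 lower of 40, from AGP1 (log2 1.72, edgeR adjusted p = 0.0165) to FLA6 (log2 -3.34, edgeR adjusted p = 0.0227). Chitinases and glucanases counted 4 higher (14.3%) and 6 lower (21.4%) of 28, with AT4G01700 at 155, 179 and 182 CPM in mutant cells and 15.4, 25.3 and 23.2 CPM in wild-type cells (log2 3.01, edgeR adjusted p = 0.000369) and AT2G43600 at 0, 1.06 and 0 CPM in mutant cells and 23.7, 31.6 and 25.1 CPM in wild-type cells (log2 -6.28, edgeR adjusted p = 0.00266). All mutant counts of AT2G43600 came from replicate 2, so its fitted fold rests on that library, without which the mutant libraries are at 0. Lipid transfer proteins counted 6 higher and 8 lower of 34, with AT4G33550 averaging 27 ± 6.37 CPM in the mutant and 1.18 ± 0.452 CPM in wild type (log2 4.51, edgeR adjusted p = 0.000531) and LTPG1, which carries wax to the cell surface, averaging 0.376 ± 0.357 CPM in the mutant and 11.6 ± 2.08 CPM in wild type (log2 -4.87, edgeR adjusted p = 0.00326). The cellulose synthase group had 0 each higher and 4, 4 and 5 lower members without wild-type replicate 1, 2 and 3. The cellulose synthase group had 1, 3 and 0 higher and 15, 10 and 7 lower members without mutant replicate 1, 2 and 3. The pectin methylesterases had 4, 3 and 5 higher members without wild-type replicate 1, 2 and 3. The pectin lyase group had 4, 3 and 4 higher and 8, 7 and 9 lower members without wild-type replicate 1, 2 and 3. The arabinogalactan proteins had 0, 0 and 2 higher and 6, 4 and 5 lower members without wild-type replicate 1, 2 and 3. The chitinases had 2 each higher and 4, 2 and 2 lower members without wild-type replicate 1, 2 and 3. The lipid transfer proteins had 5, 3 and 5 lower members without wild-type replicate 1, 2 and 3. The lipid transfer proteins had 6, 7 and 10 higher members without mutant replicate 1, 2 and 3. The call of CESA5 was lost without wild-type replicate 1, 2 or 3 and without mutant replicate 1 or 3 (adjusted p over the alternatives 0.0046 to 0.147). The call of PME5 was lost without wild-type replicate 2 (adjusted p over the alternatives 1.47e-05 to 0.0544). The call of AGP1 was lost without wild-type replicate 1 or 2 (adjusted p over the alternatives 0.000392 to 0.0735). The call of FLA6 was lost without wild-type replicate 1, 2 or 3 (adjusted p over the alternatives 0.000111 to 0.104). AGP1 had a log2 change of 1.08 without mutant replicate 1.

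Transcription factor families moved unevenly. R2R3 MYB factors counted 16 higher (25%) and 10 lower of 64, at a median log2 change of 0.49. MYB37, which acts in shoot branching, had 3.68, 6.03 and 15.6 CPM in mutant cells and 0.447, 0.666 and 0.443 CPM in wild-type cells (log2 3.99, edgeR adjusted p = 0.00527). MYB66, the WEREWOLF gene that patterns the root epidermis and one of the epidermal markers, had 0.0837, 2.96 and 0.137 CPM in mutant cells and 51.2, 69.7 and 44.5 CPM in wild-type cells (log2 -5.74, edgeR adjusted p = 0.00342). LOB domain factors, known from organ boundaries and lateral roots, had 0 higher and 5 lower of 10, with a median of -1.79. LBD15 had 0.502, 0.118 and 1.64 CPM in mutant cells and 17.3, 21.3 and 20.9 CPM in wild-type cells (log2 -4.77, edgeR adjusted p = 0.00225). The R2R3 MYB family had 8, 8 and 9 higher and 3 each lower members without wild-type replicate 1, 2 and 3. The LOB family had 4, 2 and 3 lower members without wild-type replicate 1, 2 and 3. The LOB family had 9, 6 and 7 lower members without mutant replicate 1, 2 and 3. The R2R3 MYB family had a median of 0.18 in a joint fit of all 12 libraries. The LOB family had a median of -0.60 with DESeq2. MYB66 had a log2 change of -8.95 without mutant replicate 2.

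The other transcription factor families had members on both sides, beside background shares of 15.6% higher and 12.9% lower. Shares higher and lower were 17.3% and 21% for bHLH, 13.7% and 13.7% for NAC and 20.7% and 24.1% for homeodomain leucine zipper factors. They were 17.4% and 4.35% for ERF and DREB factors and 11.1% and 22.2% for MADS box factors. The NAC shares lay near the background. The bHLH family counted 14 higher and 17 lower of 81, with AT1G61660 at 51.5, 52.4 and 42.6 CPM in mutant cells and 6.11, 6.24 and 6.87 CPM in wild-type cells (log2 2.93, edgeR adjusted p = 0.000306) and AT4G25400 at 0.502, 2.13 and 4.1 CPM in mutant cells and 18.4, 25.4 and 24.8 CPM in wild-type cells (log2 -3.39, edgeR adjusted p = 0.00619). NAC factors counted 7 higher and 7 lower of 51, with the drought-responsive RD26 at 199, 56.1 and 175 CPM in mutant cells and 26.3, 15.4 and 32.6 CPM in wild-type cells (log2 2.54, edgeR adjusted p = 0.00738). Homeodomain leucine zipper factors counted 6 higher and 7 lower of 29, from HB17 (log2 3.43, edgeR adjusted p = 0.0116) to the epidermal factor HDG1 (log2 -4.15, edgeR adjusted p = 0.004). ERF and DREB factors counted 8 higher and 2 lower of 46. AT5G07310 of this family had 50, 0.473 and 14.1 CPM in mutant cells and 0.844, 0.166 and 1.11 CPM in wild-type cells (log2 4.95, edgeR adjusted p = 0.0277), with 1 of 3 mutant libraries inside the wild-type range, and the cytokinin response factor CRF3 was lower (log2 -1.58, edgeR adjusted p = 0.00688). MADS box factors counted 2 higher and 4 lower of 18, with the flowering repressor MAF4 averaging 9.84 ± 6.43 CPM in the mutant and 0.302 ± 0.261 CPM in wild type (log2 4.95, edgeR adjusted p = 0.0085) and AGL17 averaging 9.05 ± 5.63 CPM in the mutant and 33.9 ± 5.49 CPM in wild type (log2 -1.90, edgeR adjusted p = 0.0124). The bHLH family had 9, 8 and 8 higher and 13, 6 and 11 lower members without wild-type replicate 1, 2 and 3. The NAC family had 3, 2 and 4 higher and 3 each lower members without wild-type replicate 1, 2 and 3. The NAC family had 13, 7 and 9 lower members without mutant replicate 1, 2 and 3. The homeodomain family had 2, 2 and 3 higher and 3 each lower members without wild-type replicate 1, 2 and 3. The homeodomain family had 11, 7 and 8 lower members without mutant replicate 1, 2 and 3. The ERF family had 3, 4 and 5 higher members without wild-type replicate 1, 2 and 3. The ERF family had 9, 13 and 9 higher and 6, 5 and 4 lower members without mutant replicate 1, 2 and 3. The MADS family had 2, 0 and 2 lower members without wild-type replicate 1, 2 and 3. The call of HB17 was lost without wild-type replicate 1 or 2 (adjusted p over the alternatives 2.71e-05 to 0.0655). The call of AT5G07310 was lost without wild-type replicate 1, 2 or 3, without mutant replicate 1 and with limma-voom (adjusted p over the alternatives 0.00457 to 0.212). The call of AGL17 was lost without wild-type replicate 2 (adjusted p over the alternatives 0.000152 to 0.0628).

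Hormone pathways other than jasmonate had calls at single steps. Of 20 ethylene genes, 3 were higher (15%) and 3 lower (15%), near the 15.6% and 12.9% over all genes. ACS7, a synthase of the ethylene precursor, had 51.8, 95.3 and 93.6 CPM in the mutant libraries, against 12.4, 18 and 12.3 CPM in the wild-type libraries. ACS7 changed by 2.49 log2 units (SE 0.31, edgeR adjusted p = 0.00135). EFE, the oxidase that releases ethylene from it, had 0.837, 7.1 and 8.88 CPM in the mutant libraries, against 36.3, 66.4 and 45.6 CPM in the wild-type libraries. EFE changed by -3.17 log2 units (SE 0.69, edgeR adjusted p = 0.0117). Consecutive steps of ethylene synthesis stood on opposite sides of wild type in transcript level. EIN2, the central signal carrier, was higher (log2 1.18, edgeR adjusted p = 0.00992), and the receptors EIN4 and ERS1 were lower (log2 -1.04, edgeR adjusted p = 0.0136 and log2 -0.76, edgeR adjusted p = 0.0289). Auxin-responsive SAUR genes counted 1 higher and 8 lower of 26. AT1G75590 averaged 23 ± 10.2 CPM in the mutant and 8.55 ± 0.997 CPM in wild type (log2 1.43, edgeR adjusted p = 0.0195), and AT4G34810 was 120.1-fold lower in the mutant, with a counting interval of 33.1 to 994. Aux/IAA repressors counted 4 higher and 5 lower of 23, with IAA30 at 11.6, 4.14 and 9.29 CPM in mutant cells and 0.497, 1.04 and 1.38 CPM in wild-type cells (log2 3.09, edgeR adjusted p = 0.00917) and IAA14, which restrains lateral roots, at 1.92, 5.91 and 9.16 CPM in mutant cells and 24.2, 32.5 and 27.3 CPM in wild-type cells (log2 -2.33, edgeR adjusted p = 0.0116). GH3 enzymes had 0 higher and 4 lower of 14. The ethylene list had 1, 1 and 2 higher and 1, 0 and 2 lower members without wild-type replicate 1, 2 and 3. The SAUR genes had 0 each higher and 3, 2 and 3 lower members without wild-type replicate 1, 2 and 3. The SAUR genes had 2, 1 and 1 higher members without mutant replicate 1, 2 and 3. The Aux/IAA genes had 3, 2 and 3 higher and 3, 0 and 1 lower members without wild-type replicate 1, 2 and 3. The Aux/IAA genes had 7, 3 and 6 lower members without mutant replicate 1, 2 and 3. The GH3 family had 0, 2 and 1 higher members without mutant replicate 1, 2 and 3. The calls of EFE, IAA30 and IAA14 were lost without wild-type replicate 2 (adjusted p over the alternatives 1.03e-05 to 0.0567, 1.4e-05 to 0.0516 and 7.17e-05 to 0.0582). The calls of EIN2 and EIN4 were lost without wild-type replicate 1 or 2 (adjusted p over the alternatives 0.000268 to 0.0569 and 0.000369 to 0.0703). The call of ERS1 was lost without wild-type replicate 1, 2 or 3 and without mutant replicate 3 (adjusted p over the alternatives 0.00134 to 0.0997). The call of AT1G75590 was lost without wild-type replicate 1, 2 or 3 (adjusted p over the alternatives 0.00203 to 0.0909).

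Brassinosteroid genes had 0 called members of 10 tested with edgeR, and 2 of them, BR6OX1 (log2 -0.72, edgeR adjusted p = 0.0617) and the receptor BRI1 (log2 -0.53, edgeR adjusted p = 0.0835), had an unadjusted p under 0.05. DESeq2 and limma-voom each called 2 members lower. Signalling peptides were few: RALF peptides counted 1 higher and 4 lower of 9. RALF1, which alkalinizes the apoplast, had 143, 243 and 212 CPM in mutant cells and 57, 54.4 and 73.3 CPM in wild-type cells (log2 1.70, edgeR adjusted p = 0.00292), and RALFL24 was lower (log2 -1.63, edgeR adjusted p = 0.0409). CLE peptides had 0 higher and 1 lower of 11. Of 3 tested GASA peptide genes, AT5G14920 was higher and GASA4 lower (log2 2.61, edgeR adjusted p = 0.00174 and log2 -1.15, edgeR adjusted p = 0.0109). The RALF peptides had 0, 0 and 1 lower members without wild-type replicate 1, 2 and 3. The RALF peptides had 2, 1 and 1 higher members without mutant replicate 1, 2 and 3. The CLE peptides had 0 each lower members without wild-type replicate 1, 2 and 3. The CLE peptides had 4, 3 and 1 lower members without mutant replicate 1, 2 and 3. The call of RALFL24 was lost without wild-type replicate 1, 2 or 3 (adjusted p over the alternatives 0.00652 to 0.167).

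Housekeeping processes had called genes in both directions, beside background shares of 15.6% higher and 12.9% lower. Shares higher and lower were 30% and 20% for reticulum folding, 13% and 30.4% for sterol synthesis and 25% and 8.33% for the methyl cycle. In endoplasmic reticulum protein folding 6 of 20 genes were higher and 4 lower. The chaperone BIP1 had 605, 794 and 868 CPM in mutant cells and 269, 241 and 266 CPM in wild-type cells (log2 1.55, edgeR adjusted p = 0.00211), and its near relative BIP2 had 933, 1189 and 1304 CPM in mutant cells and 475, 457 and 460.2 CPM in wild-type cells (log2 1.30, edgeR adjusted p = 0.00379). The disulfide isomerase PDIL1-2 had 34.6, 37.5 and 40.7 CPM in mutant cells and 111, 105 and 83.5 CPM in wild-type cells (log2 -1.41, edgeR adjusted p = 0.00247). SHD, the reticulum form of HSP90, was lower (log2 -0.80, edgeR adjusted p = 0.0331), so 2 chaperone families of the same compartment differed in direction. Sterol synthesis counted 3 higher and 7 lower (30.4%) of 23. HMG1, the reductase that commits carbon to isoprenoids, had 563, 415 and 459 CPM in the mutant libraries, against 152, 141 and 175 CPM in the wild-type libraries. HMG1 changed by 1.62 log2 units (SE 0.21, edgeR adjusted p = 0.00163). HMGS, the synthase just before it, had 211, 212 and 146 CPM in the mutant libraries, against 457, 498 and 442 CPM in the wild-type libraries. HMGS changed by -1.29 log2 units (SE 0.22, edgeR adjusted p = 0.00444). SMT1, the first sterol methyltransferase, was higher (log2 1.08, edgeR adjusted p = 0.00959), and SMT3, a later one, was lower (log2 -1.29, edgeR adjusted p = 0.00337). The methyl cycle counted 3 higher and 1 lower of 12, with MS2 at 0.84 and MTHFR1 at -0.76 on the log2 scale (edgeR adjusted p = 0.0308 and 0.0275). The reticulum folding list had 6, 2 and 5 higher and 2, 2 and 3 lower members without wild-type replicate 1, 2 and 3. The sterol list had 1 each higher and 3, 3 and 4 lower members without wild-type replicate 1, 2 and 3. The methyl cycle had 0 each higher and 0 each lower members without wild-type replicate 1, 2 and 3. The methyl cycle had 4, 1 and 0 lower members without mutant replicate 1, 2 and 3. The call of SHD was lost without wild-type replicate 1, 2 or 3, without mutant replicate 3 and under the replicate block (adjusted p over the alternatives 0.00309 to 0.115). The calls of SMT1 and MS2 were lost without wild-type replicate 1, 2 or 3 (adjusted p over the alternatives 0.000179 to 0.0569 and 0.00427 to 0.125). The call of MTHFR1 was lost without wild-type replicate 1, 2 or 3 and without mutant replicate 3 (adjusted p over the alternatives 0.000885 to 0.0988).

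Low-oxygen genes counted 2 higher and 2 lower of 10. HB1, a hemoglobin that scavenges nitric oxide, had 1 count in all mutant libraries and was 197-fold lower in the mutant, with a counting interval of 35.1 to 7779. The pyruvate decarboxylase gene AT4G33070 averaged 9.68 ± 4.25 CPM in the mutant and 3.39 ± 0.777 CPM in wild type (log2 1.51, edgeR adjusted p = 0.0422), and ADH1 had 24.7, 0.237 and 3.14 CPM in mutant cells and 0.546, 0.0832 and 1.27 CPM in wild-type cells and did not pass the test (log2 3.90, edgeR adjusted p = 0.0796). The low-oxygen list had 0 each higher and 1 each lower members without wild-type replicate 1, 2 and 3. The low-oxygen list had 2, 3 and 0 higher and 2, 1 and 2 lower members without mutant replicate 1, 2 and 3. The call of AT4G33070 was lost without wild-type replicate 1, 2 or 3, without mutant replicate 3, without the low-count filter and under the replicate block (adjusted p over the alternatives 0.00318 to 0.171).

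Ribosomal protein genes had shares near or below the background, with 29 higher and 38 lower of 272 and a median log2 fold change of -0.41. Of 50 proteasome subunits 8 were higher (16%) and 8 lower (16%), near the background, from RPT5B (log2 1.60, edgeR adjusted p = 0.00492) to PBD2 (log2 -1.30, edgeR adjusted p = 0.00531). Histones counted 5 higher and 11 lower (24.4%) of 45, with AT3G09480 averaging 5.76 ± 2.97 CPM in the mutant and 27.1 ± 2.61 CPM in wild type (log2 -2.22, edgeR adjusted p = 0.00672). Tubulins, actins and their partners counted 12 higher and 19 lower of 81, from the formin gene AT3G05470 (log2 2.87, edgeR adjusted p = 0.00229) to ADF8, an actin depolymerizing factor, with 3.18, 3.55 and 3.69 CPM in mutant cells and 40.1, 53.8 and 60.2 CPM in wild-type cells (log2 -3.89, edgeR adjusted p = 0.000212). Syntaxins and exocyst EXO70 genes counted 10 higher (27%) and 6 lower of 37. SYP111, the KNOLLE syntaxin of dividing cells, had 46, 86.6 and 124 CPM in mutant cells and 20.7, 17.8 and 21.8 CPM in wild-type cells (log2 2.09, edgeR adjusted p = 0.00437), and EXO70E2 had 0.586, 1.3 and 0.273 CPM in mutant cells and 11.9, 10.5 and 13 CPM in wild-type cells (log2 -4.01, edgeR adjusted p = 0.0024). Autophagy genes and photosystem genes had shares called of 18.8% and 20% against 28.5% over all genes, with 3 higher and 3 lower of 32 and 2 higher and 5 lower of 35. The ribosomal proteins had 20, 18 and 17 higher and 12, 8 and 21 lower members without wild-type replicate 1, 2 and 3. The ribosomal proteins had 45, 25 and 26 higher and 37, 79 and 23 lower members without mutant replicate 1, 2 and 3. The proteasome had 4, 3 and 3 higher and 3 each lower members without wild-type replicate 1, 2 and 3. The proteasome had 8, 5 and 8 higher members without mutant replicate 1, 2 and 3. The histones had 8, 7 and 8 lower members without wild-type replicate 1, 2 and 3. The histones had 11, 17 and 12 lower members without mutant replicate 1, 2 and 3. The cytoskeleton genes had 11, 12 and 11 lower members without wild-type replicate 1, 2 and 3. The syntaxin and exocyst genes had 5, 5 and 6 higher members without wild-type replicate 1, 2 and 3. The syntaxin and exocyst genes had 14, 7 and 8 lower members without mutant replicate 1, 2 and 3. The autophagy genes had 0, 1 and 2 higher and 1 each lower members without wild-type replicate 1, 2 and 3. The autophagy genes had 9, 3 and 2 lower members without mutant replicate 1, 2 and 3. The photosystem genes had 1 each higher and 0 each lower members without wild-type replicate 1, 2 and 3. The photosystem genes had 9, 6 and 5 lower members without mutant replicate 1, 2 and 3. The ribosomal proteins had a median of -0.22 and -0.64 without mutant replicate 1 and 2.

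The 28 genes that led by fold change or by difference in level were also followed in whole roots, where endodermis is one tissue among many and where 6.1% of 19624 genes were called. In whole roots 10 of the 28 were called, and all 10 had the endodermal direction. AT2G40113 averaged 1.97 ± 0.467 CPM in mutant roots and 47.7 ± 7.22 CPM in wild-type roots (log2 -4.59, edgeR adjusted p = 2.75e-06), and AT1G23160 averaged 0.476 ± 0.107 CPM in mutant roots and 15.3 ± 1.42 CPM in wild-type roots (log2 -4.98, edgeR adjusted p = 2.73e-06). ATPMEPCRB averaged 23.7 ± 2.51 CPM in mutant roots and 3.2 ± 0.4 CPM in wild-type roots (log2 2.88, edgeR adjusted p = 1.07e-05). These 3 genes differed in both tissues. PYK10 averaged 13944 ± 760.1 CPM in mutant roots and 16461 ± 1531 CPM in wild-type roots (log2 -0.24, edgeR adjusted p = 0.395), and BGLU35 averaged 232 ± 45.7 CPM in mutant roots and 219 ± 42 CPM in wild-type roots (log2 0.08, edgeR adjusted p = 0.858). The difference between the endodermal and whole-root effects was called for 25 of the 28, with 28.4% called over all genes, and every one of the 28 had the larger absolute change in endodermis. The genes were chosen for their endodermal change, so a smaller effect elsewhere is in part set by that choice.

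**Figure D5:**
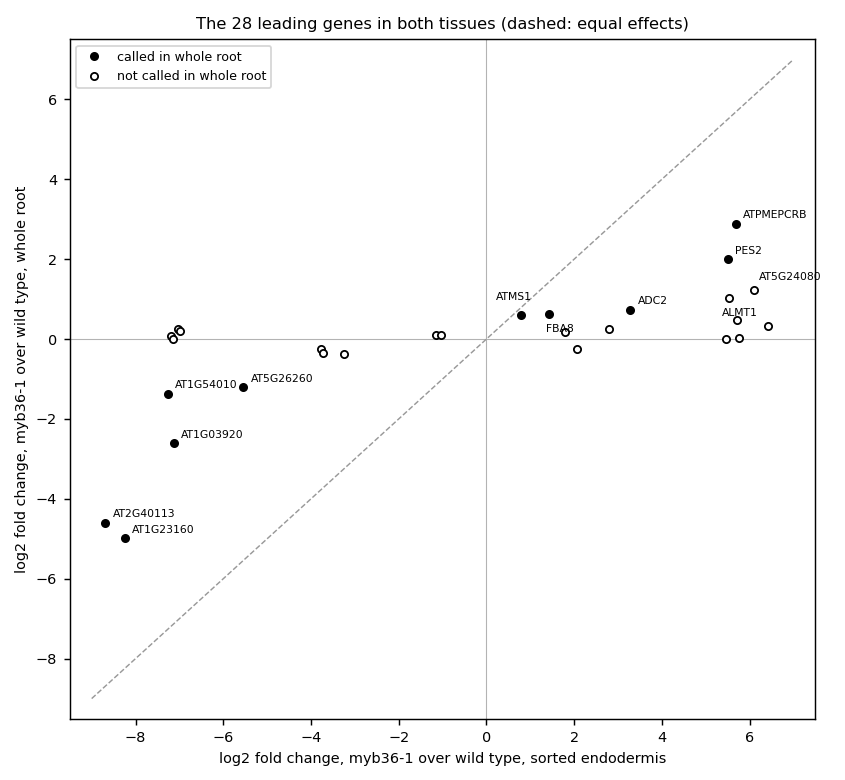
Log2 fold change, myb36-1 over wild type, of the 28 leading genes in sorted endodermis (horizontal) and in whole root (vertical), filled where called in whole root, with equal effects on the dashed line. All 28 lie nearer to 0 in whole root, and the 10 filled points share the direction of the endodermis.

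In the authors' deposited table of expression tests, 114 of the called genes that the naming rule chose have a row, and 92 have a q-value under 0.05. The direction was the same as in the counts for all 114. Both sets of values come from the same sorted libraries, so the shared direction is not an independent check. For AT3G07720 the authors' deposited table gives 207 FPKM for mutant cells and 2.09 FPKM for wild-type cells (q = 0), and for PYK10 the authors' deposited table gives 584 FPKM for mutant cells and 5643 FPKM for wild-type cells (q = 0.00543). For COR47, which passed the edgeR test, the authors' deposited table gives 5798 FPKM for mutant cells and 962 FPKM for wild-type cells (q = 0.196). Among the genes of that rule, 27 overlap an antisense gene, and since the use of strand in counting is not given, their reads cannot be told from those of the partner.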

How the data were processed

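RNA of sorted endodermis and whole roots of myb36-1 and wild type was sequenced from strand-specific libraries, per the labels' protocols. The authors deposited raw read counts per locus for 12 libraries without normalization. TopHat2, SAMtools, Cufflinks, Cuffdiff and HTSeq with build TAIR10 are named in the submitters' processing notes; their versions and roles, and the use of strand in counting, are not given here. The authors' deposited table of tests holds 1 FPKM per genotype with replicates pooled, and a q-value, per the file headers.

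The main test was the quasi-likelihood F-test of edgeR 4.0.16 under R 4.3.3 (TMM factors, filterByExpr by group, Benjamini-Hochberg over all genes tested, adjusted p under 0.05), on the 6 sorted libraries, on the 6 whole-root libraries, and over all 12 for the difference of effects. SE is the absolute log2 fold change divided by the square root of F. Alternatives used DESeq2 1.42.0 and limma 3.58.1 among others. Ratios with 1 to 3 counts have an exact 95% interval, floors are 3 counts, and both cover counting error only. Names, exons and overlaps came from TAIR10.1, which holds 32835 of the 33602 loci; of 25323 names compared with the files, 99.9% lay at the same place. Shared sequence is the share of 50-base exonic windows found elsewhere.

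Named genes followed a rule: 8 genes each way with the greatest fitted change, from called genes reaching 5 CPM in either group, 10 counts in the lower group and no overlap of libraries; the 6 largest gains and 6 largest losses in mean CPM; the leading called member each way, reaching the same 5 CPM, of 14 process lists and 56 families; and MYB36. Casparian strip, suberin and phenylpropanoid genes were left out of the naming. Members, lists and rules were chosen with earlier results of these data known, and family membership was corrected from annotation text after the counts had been read. Other list members are given as values. Not every gene that the rule chose is reported here. The fit was tested on simulated data with known changes. With 49 or 50 genes changed at each fold among 17898, it recovered 0% of 2-fold, 52% of 4-fold, 83.7% of 8-fold and 91.8% of 16-fold changes. Far more genes were called in the data, which eases the adjusted threshold, so these shares are not the recovery in the data. Smaller changes can still be missed.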

Additional observations from a re-analysis of the deposited data

Results flagged for a closer look

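The genotype effect (myb36-1 over wild type, log2) differed between sorted endodermis and whole root for 25 of the 28 genes that led by fold change or level, by an edgeR test of the difference itself over all 12 libraries (endodermal effect minus whole-root effect). Over all genes 28.4% were called for this difference. The 28 were chosen for their endodermal change in these same libraries, so a larger endodermal effect is in part set by that choice. The difference was positive for AT3G07720 (6.07), AT5G24080 (4.87), AT5G41740 (5.69), AT1G22885 (5.23), ATPMEPCRB (2.78), ALMT1 (4.48), PES2 (3.49), AT1G80450 (5.44), COR47 (2.30), PEN3 (2.53), ADC2 (2.52) and AT4G27090 (1.59). It was negative for AT2G40113 (-4.13), AT1G23160 (-3.31), AT1G54010 (-5.90), BGLU35 (-7.28), NAC015 (-7.18), AT1G03920 (-4.55), AT3G03500 (-7.26), AT1G73340 (-7.21), PYK10 (-3.55), AT5G26260 (-4.35), BGLU21 (-2.91), HSC70-1 (-1.18) and BGLU22 (-3.41). For BGLU35, NAC015, AT3G03500 and AT1G73340 the whole-root effect was 0.08, -0.01, 0.24 and 0.19 on the log2 scale and was not called. NAC015 is also one of the root cap markers, which summed to 2.96 to 17.1 CPM in mutant and 164 to 219.6 CPM in wild-type sorted libraries. Root hair and epidermis markers summed to 47.6 to 57.9 CPM in mutant and 259 to 329 CPM in wild-type sorted libraries. The part of transcripts from such other cells in these differences was not tested. Sorted cells and whole roots also differed in protoplasting, sorting and RNA kit, and the part of these steps in the differences was not tested.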

How the results depend on the processing

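With 2857 genes higher and 2368 lower as the main counts, a joint fit of all 12 libraries called 4493 higher and 4758 lower. Leaving out a single replicate gave 1234 to 3451 higher and 1002 to 3566 lower. The other alternatives stayed within 1.5 times the main counts: 2439 to 3477 higher and 2209 to 3092 lower over RLE and upper-quartile factors, organelle genes left out, no low-count filter, DESeq2, limma-voom, thinning to the smallest library and the replicate block. With the replicate number as a block 2439 genes were higher and 2245 lower. Same-numbered mutant and wild-type libraries had correlations of deviations of 0.024, 0.223 and 0.001, so the numbers were not taken to pair the samples, and not every library correlated best with its own number. Of 148 called genes of the naming rule, 105 kept their call under all 15 alternatives, and no gene of the rule reversed its direction. The median log2 change of all genes was -0.17 with limma-voom and -0.15 under the replicate block, against -0.05 in the main test, and lay between -0.10 and 0.04 in the other alternatives; gene by gene, the median difference from the main test was at most 0.05 in size. With 3 libraries a group, a p above the threshold does not show that a gene was unchanged.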

Other observations

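Genes of root triterpene synthesis, singled out after their values were seen, were mostly lower in the mutant. Thalianol and marneral are triterpenes of Arabidopsis roots, each made by enzymes of its own gene cluster. THAS1, the thalianol synthase, had 13.5, 22.7 and 16.1 CPM in the mutant libraries, against 118, 82.3 and 150.4 CPM in the wild-type libraries. THAS1 changed by -2.75 log2 units (SE 0.31, edgeR adjusted p = 0.000971). In its cluster CYP708A2 averaged 7.45 ± 3.41 CPM in the mutant and 58.1 ± 17.8 CPM in wild type (log2 -2.96, edgeR adjusted p = 0.00175) and CYP705A5 averaged 26.2 ± 8.47 CPM in the mutant and 456 ± 70.3 CPM in wild type (log2 -4.12, edgeR adjusted p = 0.000305), while AT5G47980 averaged 24.4 ± 20.3 CPM in the mutant and 16.8 ± 2.67 CPM in wild type and did not pass the test (log2 0.55, edgeR adjusted p = 0.533). MRN1, the marneral synthase, had 1.26, 1.42 and 4.51 CPM in the mutant libraries, against 72.8, 55.4 and 91.8 CPM in the wild-type libraries. MRN1 changed by -4.98 log2 units (SE 0.51, edgeR adjusted p = 0.000707). Beside it CYP705A12 averaged 6.96 ± 3.16 CPM in the mutant and 56.3 ± 1.03 CPM in wild type (log2 -3.01, edgeR adjusted p = 0.00129), and CYP71A16 averaged 30.1 ± 27.3 CPM in the mutant and 46.7 ± 8.2 CPM in wild type and did not pass the test (log2 -0.62, edgeR adjusted p = 0.435). Over the CYP705A subfamily, 1 of 22 tested genes was higher and 16 were lower, with a median log2 fold change of -1.63, against 15.6% higher and 12.9% lower over all genes.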
